A study of Mus musculus with 4 samples.

Results

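The 10 genes studied here are known from macrophages and were followed through cultures of mouse epidermal keratinocytes: Lyz1, Lyz2, Ctss, Marco, C1qa, C1qb, Csf1r, Adgre1, Cd68 and Fcer1g. They were read by every gene probe of the array whose name in the files was the gene or an older alias (Lyzs for Lyz2, Lzp-s for Lyz1, Emr1 for Adgre1), which gave 15 probes of 41174 gene probes and 10 of 27670 named genes. All 15 probes passed the filter on dim probes, as did 35574 probes in all. The genes were chosen with the genotype ratios of the passage 3 arrays in view, where Lyz1, Lyz2, Ctss and Marco stood high. Values that include those arrays are therefore descriptions, and a test of these genes is given for the passage 1 genotype ratio alone. The passage 1 RNA came from the same mice, so that test is not independent of the choice.

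The cultures came from mice labelled Casp-8F/–K5-Cre, called F/- here, which carried a loxP-flanked and a null allele of Casp8, the gene of the cell death protease caspase-8. They were compared with mice labelled Casp-8F/+K5-Cre, called F/+, which carried a flanked and a wild-type allele. Both groups carried K5-Cre, a recombinase under the keratin 5 promoter, so that the deletion is directed to basal keratinocytes and not to macrophages. The labels give the age of all mice, not the passage, as P3. Cells were released from Dispase-separated epidermis with trypsin and grown in serum-free keratinocyte medium, and no sort is described. RNA came from 2 mice of each genotype at passage 3 and at passage 1, 8 RNA samples in all. Each of 4 arrays, 2 per passage, compared the RNA of 1 F/- culture, labelled with Cy3, with that of its paired F/+ culture, labelled with Cy5. Dyes were not exchanged, so a dye effect and the genotype cannot be told apart in a ratio; a dye effect that is equal on all arrays cancels in the difference between passages. The labels' channel 2 source name gives the first passage for the F/+ RNA of the passage 3 arrays, while titles, descriptions and the passage entry give passage 3, and these were followed.

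Macrophages are phagocytes of the innate immune system that live in most tissues, including the skin, where they lie mainly in the dermis; the epidermis holds the related Langerhans cells. They bind particles with scavenger, complement and Fc receptors, digest them in lysosomes, and depend for survival on the receptor encoded by Csf1r and its ligands. Many of their genes are under the control of the transcription factor PU.1, which binds a purine-rich core, the PU box.

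On the 4 arrays, 75.8% to 85.4% of the gene spots read well above background in F/- RNA and 80.6% to 87.9% in F/+ RNA, with 0 saturated. The Casp8 probe had log2 ratios of 0.47 and -0.20 at passage 3 and 0.42 and 0.18 at passage 1. Its place relative to the deleted part was not known here, and it checks neither deletion nor labels. All 10 keratinocyte markers listed, among them Krt5 and Krt14, were well above background in all 8 RNA samples. The mean log2 intensity of that list lay between 14.47 and 14.80 in F/- cultures and between 14.67 and 14.80 in F/+ cultures. The number of arrays limits the precision, and p-values measure only the spread between these samples. In all that follows, a level is a normalized log2 intensity of 1 probe in 1 RNA sample, a ratio is log2 of F/- over F/+ on 1 array, and a pair of values belongs to pair 1 and pair 2. Levels of different probes are not compared with each other.

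The lysozymes digest bacterial cell walls; in the mouse, Lyz2 is the macrophage form and Lyz1 is best known from Paneth cells of the gut. Both genes lie close together on chromosome 10, and their windows of 250 bases before the RefSeq start (GRCm38.p6, both on the minus strand) are shown because the lysozyme probes moved alike and the genes are near copies. Capitals mark the run of 50 bases that the windows share up to the start. Lyz1 lies at chr10:117292869-117293118 and Lyz2 at chr10:117282273-117282522.
Lyz1: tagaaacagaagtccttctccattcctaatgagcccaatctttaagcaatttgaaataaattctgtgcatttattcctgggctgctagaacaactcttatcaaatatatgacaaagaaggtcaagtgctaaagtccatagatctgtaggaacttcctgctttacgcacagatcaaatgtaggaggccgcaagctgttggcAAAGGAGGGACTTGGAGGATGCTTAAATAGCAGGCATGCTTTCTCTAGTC
Lyz2: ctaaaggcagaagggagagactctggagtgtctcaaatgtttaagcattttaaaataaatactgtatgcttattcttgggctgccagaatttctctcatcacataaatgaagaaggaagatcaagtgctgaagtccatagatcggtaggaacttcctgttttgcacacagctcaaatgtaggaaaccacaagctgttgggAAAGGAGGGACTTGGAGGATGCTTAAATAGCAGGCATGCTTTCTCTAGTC
When aligned, the windows held 205 identical bases in 260 columns, or 78.8%. Neither held GAGGAA, used here for the PU box, or TGAGTCA, the site of the Fos and Jun factor AP-1, on either strand. The array files hold no probe sequences, so how far each lysozyme probe also reads the other gene was not tested.

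Lyz1 stood at 10.85 and 10.30 in F/- cultures at passage 3 and at 11.88 and 11.54 in F/- cultures at passage 1. In F/+ cultures it stood at 8.03 and 8.63 at passage 3 and at 11.08 and 11.24 at passage 1. Both F/- cultures lay above both F/+ cultures at either passage, with a wide gap at passage 3. The ratios were 2.82 and 1.67 at passage 3, which is 4.75-fold at the mean, and 0.81 and 0.30 at passage 1, which is 1.47-fold.

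Lyz2 was read by 2 probes. Probe A_52_P238027 stood at 13.24 and 12.47 in F/- cultures at passage 3 and at 14.27 and 13.86 at passage 1. In F/+ cultures it stood at 10.68 and 10.60 at passage 3 and at 13.71 and 13.75 at passage 1. The groups nearly met at passage 1 and stood far apart at passage 3. Its ratio was 2.21 ± 0.49 at passage 3, 4.64-fold, and 0.33 ± 0.32 at passage 1, 1.26-fold (SD, n = 2 arrays each); with median centring of each array in place of loess the passage 1 mean turned to -0.093. The dimmer probe, A_51_P321150, gave the same order with smaller differences between genotypes at passage 3, with a ratio of 0.67 ± 0.42 at passage 3 and 0.22 ± 0.27 at passage 1.

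Cathepsin S, encoded by Ctss, is a lysosomal cysteine protease that trims the invariant chain in antigen-presenting cells. Marco is a collagen-like scavenger receptor that binds bacteria. Their windows of 250 bases before the start are shown because these genes had high ratios at passage 3 and each window held a PU box, marked in capitals. The Ctss window lies at chr3:95526536-95526785 on the plus strand and the Marco window at chr1:120505025-120505274 on the minus strand (GRCm38.p6).
Ctss: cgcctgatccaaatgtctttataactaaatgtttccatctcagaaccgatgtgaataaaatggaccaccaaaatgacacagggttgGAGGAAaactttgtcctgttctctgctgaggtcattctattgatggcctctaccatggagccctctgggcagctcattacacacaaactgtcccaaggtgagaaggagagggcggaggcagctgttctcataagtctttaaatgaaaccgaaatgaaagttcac
Marco: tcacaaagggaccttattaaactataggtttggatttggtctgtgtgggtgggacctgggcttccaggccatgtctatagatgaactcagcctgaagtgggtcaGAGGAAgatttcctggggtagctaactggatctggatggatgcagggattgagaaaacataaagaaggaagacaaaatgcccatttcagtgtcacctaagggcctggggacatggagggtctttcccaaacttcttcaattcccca
The PU box lay 164 to 159 bases before the start of Ctss and 146 to 141 bases before that of Marco. A match is a description of letters and not a bound site.

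Ctss had the widest range of the 15 probes. It stood at 10.68 and 10.08 in F/- cultures at passage 3 and at 13.28 and 12.45 at passage 1. In F/+ cultures it stood at 7.73 and 8.24 at passage 3 and at 12.33 and 12.84 at passage 1. The genotypes overlapped at passage 1, where the F/- culture of pair 1 was the highest and that of pair 2 lay between the F/+ cultures, and were well apart at passage 3. The ratios were 2.96 and 1.84 at passage 3 (5.26-fold at the mean) and 0.95 and -0.40 at passage 1, so the arrays of passage 1 went opposite ways; the passage 1 mean of 0.28 turned to -0.40 without the pair 1 array and to -0.014 with median centring of each array. The passage 3 minus passage 1 difference of 2.12 was the highest of all 35574 probes, and the ratio of 2.96 was the highest of all probes on its array.

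Marco had high ratios at passage 1 already, 1.25 and 1.47, though it did not pass limma's threshold there (adjusted p = 0.070). It stood at 10.24 and 9.70 in F/- cultures at passage 3 and at 11.41 and 11.84 at passage 1. In F/+ cultures it stood at 8.41 and 8.21 at passage 3 and at 10.16 and 10.37 at passage 1. Every F/- culture lay above both F/+ cultures of its passage. Marco's ratio was 1.66 ± 0.24 at passage 3, 3.16-fold, and 1.36 ± 0.15 at passage 1, 2.56-fold (SD, n = 2 arrays each), so its passages differed by 0.30, against 1.69 for Lyz1, 1.88 for the brighter Lyz2 probe and 2.12 for Ctss.

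C1qa and C1qb encode chains of C1q, the recognition molecule of the classical complement pathway, which macrophages secrete. C1qa stood at 8.33 and 7.76 in F/- cultures at passage 3 and at 10.72 and 9.91 at passage 1. In F/+ cultures it stood at 6.93 and 6.73 at passage 3 and at 9.23 and 9.59 at passage 1. The F/- cultures were higher at both passages without overlap, with ratios of 1.40 and 1.03 at passage 3 and 1.49 and 0.32 at passage 1. C1qb stood at 8.36 and 7.83 in F/- cultures and at 8.02 and 7.72 in F/+ cultures at passage 3. At passage 1 it stood at 9.91 and 9.28 in F/- cultures and at 9.08 and 9.16 in F/+ cultures. The C1qb groups overlapped at passage 3, and its ratios, 0.34 and 0.11 at passage 3 and 0.83 and 0.11 at passage 1, were smaller than those of C1qa on every array. The C1qb window held a PU box 30 to 25 bases before the start.

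Csf1r encodes the receptor for the growth factors CSF1 and IL-34, and its 3 probes disagreed. The brightest, A_51_P365885, stood at 8.06 and 7.63 in F/- cultures and at 7.38 and 7.23 in F/+ cultures at passage 3. At passage 1 it stood at 9.05 and 8.69 in F/- cultures and at 8.14 and 8.37 in F/+ cultures. Its groups did not overlap at either passage, and its ratio was 0.54 ± 0.20 at passage 3 and 0.61 ± 0.41 at passage 1. A_52_P602091 also had positive ratios on every array, with 0.28 ± 0.18 at passage 3 and 0.54 ± 0.19 at passage 1. A_52_P570471 stayed between 6.88 and 7.24 in all 8 RNA samples, with ratios from -0.10 to 0.05, so it moved little with genotype or passage.

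Adgre1 encodes F4/80, the adhesion receptor by which mouse macrophages are usually recognised. Its brighter probe, A_51_P251768, stood at 7.98 and 7.49 in F/- cultures and at 6.76 and 6.74 in F/+ cultures at passage 3. At passage 1 it stood at 9.47 and 8.57 in F/- cultures and at 8.33 and 8.35 in F/+ cultures. F/- was higher without overlap at both passages, with ratios of 1.22 and 0.75 at passage 3 and 1.13 and 0.22 at passage 1. The other probe, A_52_P364727, was not well above background in either genotype at passage 3 and so has no fold between genotypes there; counts over the 15 probes use its measured value. By measured value its passage 1 level was 1.15-fold higher than the passage 3 level in F/- cultures and 1.12-fold higher in F/+ cultures. Neither change passed limma's threshold (adjusted p = 0.46 in F/- and 0.52 in F/+).

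Fcer1g encodes the common gamma chain through which Fc receptors signal, and Cd68 encodes a glycoprotein of macrophage lysosomes. The Cd68 window lies at chr11:69666171-69666420 on the minus strand (GRCm38.p6) and is shown because it was the only window of these genes with both motifs in capitals, the PU box 225 to 220 bases and AP-1 sites 149 to 143 and 24 to 18 bases before the start.
Cd68: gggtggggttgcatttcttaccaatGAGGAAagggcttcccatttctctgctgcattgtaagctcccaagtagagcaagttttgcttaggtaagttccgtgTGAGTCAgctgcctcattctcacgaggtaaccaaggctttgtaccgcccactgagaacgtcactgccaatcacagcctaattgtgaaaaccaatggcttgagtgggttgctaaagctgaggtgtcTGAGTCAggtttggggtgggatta
Cd68 stood at 8.87 and 8.56 in F/- cultures and at 9.12 and 8.48 in F/+ cultures at passage 3, and its groups overlapped. At passage 1 it stood at 10.94 and 10.41 in F/- cultures and at 10.72 and 10.59 in F/+ cultures, where they overlapped as well. Its ratios had mixed signs at both passages, -0.24 and 0.09 at passage 3 and 0.21 and -0.18 at passage 1.

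The brighter Fcer1g probe, A_51_P405476, stood at 8.66 and 8.31 in F/- cultures and at 8.40 and 8.28 in F/+ cultures at passage 3. At passage 1 it stood at 10.24 and 9.49 in F/- cultures and at 9.27 and 9.60 in F/+ cultures. Its groups overlapped at both passages, and its ratios were 0.26 and 0.02 at passage 3 and 0.97 and -0.11 at passage 1. A_51_P405478 gave ratios of 0.50 and 0.20 at passage 3 and 1.19 and -0.01 at passage 1. Cd68 and Fcer1g thus had smaller ratios at passage 3 than the lysozymes, Ctss, Marco and C1qa, in RNA of the same cultures. For the dimmer probes this order depended on the processing. In the authors' deposited table the passage 3 ratios were 1.76 and 0.96 for Fcer1g probe A_51_P405478. They were 1.93 and 0.81 there for Lyz2 probe A_51_P321150.

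**Figure D1:**
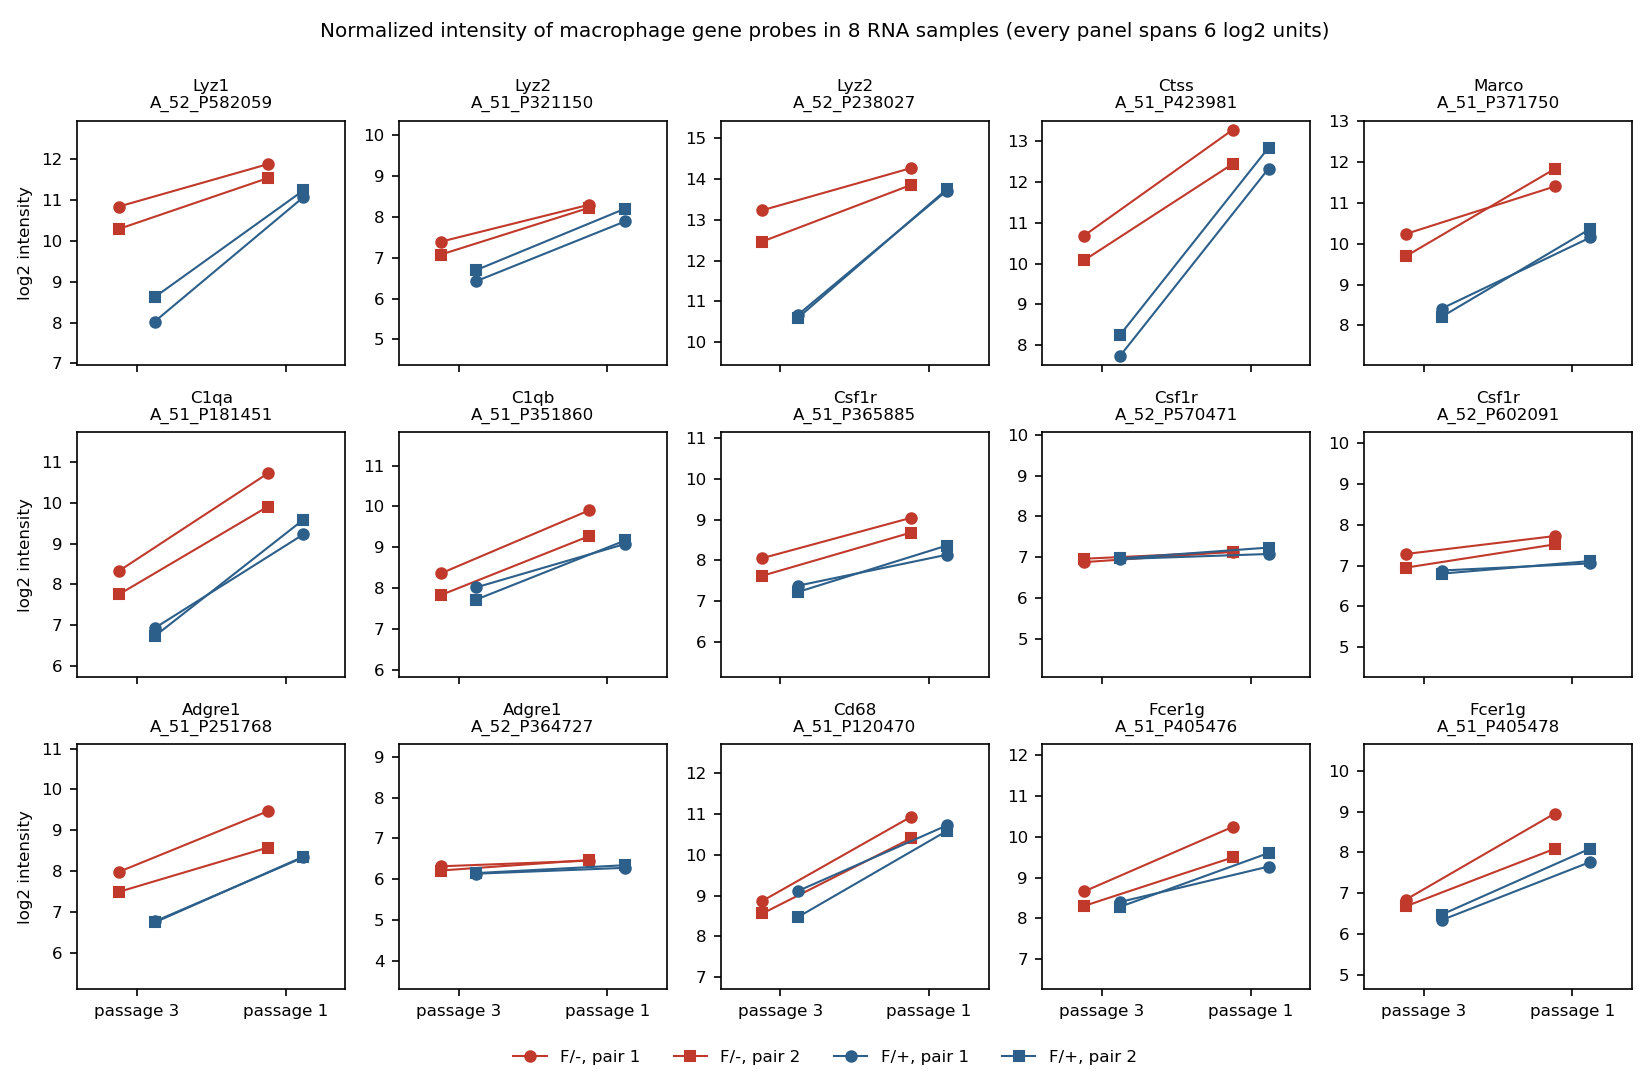
Normalized log2 intensity of each of the 15 probes in 8 RNA samples (vertical axis), by passage (horizontal axis), with F/- in red left of F/+ in blue, circles for pair 1 and squares for pair 2; lines join the passages of a culture, and every panel spans the same range. All lines are lower at passage 3, and the genotypes are farthest apart at passage 3 in Lyz1, Ctss and Lyz2 probe A_52_P238027.

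Of the 10 genes, 7 had a window in the RefSeq promoter table: Lyz1, Lyz2, Ctss, Marco, C1qb, Cd68 and Fcer1g. C1qa, Csf1r and Adgre1 had none. GAGGAA on either strand was in 4 of the 7 windows (57.1%), against 23.3% of 32851 windows in the table. TGAGTCA was in 1 of 7 (14.3%), against 4.46% of all windows. The motifs did not overlap each other in these windows. The genes with and without a PU box did not divide by genotype ratio: Ctss and Marco had the box and high ratios at passage 3, Cd68 and C1qb had the box and low ratios, and Lyz1 and Lyz2 had no box in the window and high ratios.

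The genotype comparison asks whether RNA of F/- and F/+ cultures held unequal amounts of these transcripts. At passage 1, ratios were above 0 on both arrays for 10 of the 15 probes, against 33.1% of all probes (on all 4 arrays also for 10, against 19%), and the levels of both F/- cultures lay above those of both F/+ cultures for 10 of 15, against 21.3% of all probes. By limma with Benjamini-Hochberg adjustment over 35574 probes, 0 of the 15 passed at 0.05, as did 0 of all probes (0%). At an unadjusted p under 0.05 the counts were 5 of 15 probes, against 20.6% of all probes. Marco had the smallest adjusted p of the 15 at 0.070, with a log2 ratio of 1.36 (SE 0.12) that was positive on 2 of 2 arrays; with a normexp offset of 0 it was 0.048. Csf1r probe A_52_P602091 followed at 0.106, then Csf1r probe A_51_P365885 at 0.150, C1qa at 0.191 and Adgre1 probe A_51_P251768 at 0.222. Ctss had an adjusted p of 0.748 and Cd68 of 0.967. The median ratio over the 15 probes at passage 1 was 0.47, against -0.0055 over all probes.

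The arrays of pair 1 and pair 2 differed. At passage 1 the ratio was higher in pair 1 for 14 of the 15 probes, with Marco the exception, and the median over the 15 probes was 0.83 in pair 1 and 0.11 in pair 2. At passage 3 it was higher in pair 1 for 13 of 15, with medians of 0.67 and 0.38. A gene of another cell type also differed between the pairs: Hbb-bt, an erythroid beta globin, had ratios of 2.04 and -1.17 at passage 1, and its part in the difference between pairs was not tested.

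At passage 3, which is described without a test, ratios were above 0 on both arrays for 13 of the 15 probes, the exceptions being Cd68 and Csf1r probe A_52_P570471 (background 31.1% of all probes). F/- levels lay above F/+ levels without overlap for 11 of 15 (background 14%). The median ratio was 0.54 and the range ran from -0.08 for Cd68 to 2.40 for Ctss; the median was 0.83 with a normexp offset of 0 and 1.36 with the scanner's ratio or the authors' deposited table. Over both passages, 5 of the 15 probes and 5 genes were past the threshold, 5 higher and 0 lower in F/-, and the background was 5.85% of all probes for higher calls, 2.99% for lower ones and 8.84% in either direction. The probes were those of Marco (mean ratio 1.51), Lyz1 (1.40), Lyz2 probe A_52_P238027 (1.27), C1qa (1.06) and Csf1r probe A_52_P602091 (0.41). The genes had been chosen partly on these values, so nothing is read from that count. With the passages of a pair averaged before the fit, so that mice and not arrays were counted, 0 of the 15 were past the threshold, as were 0 of all probes. The count was also 0 without either passage 1 array or without the passage 3 array of pair 1, 6 without the passage 3 array of pair 2, and 9 with the pair as a block.

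**Figure D2:**
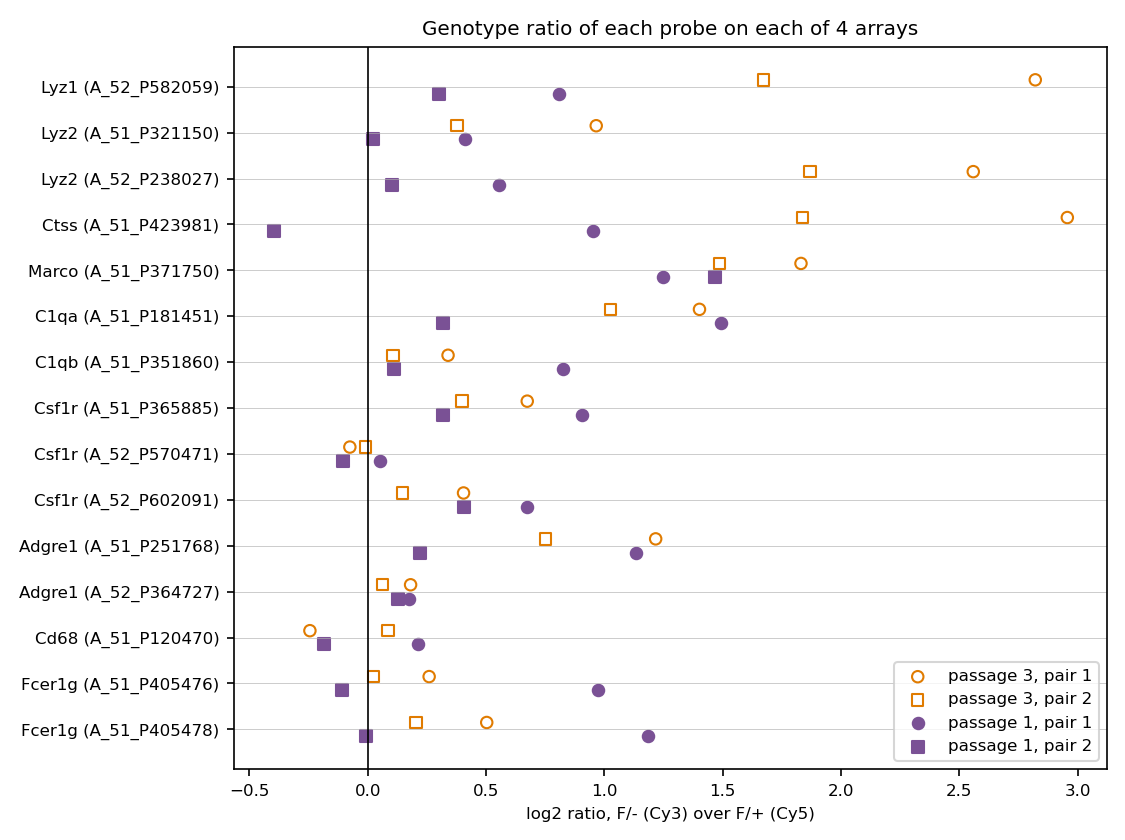
Log2 ratio of F/- over F/+ (horizontal axis) for each of 15 probes (rows) on the passage 3 arrays (open orange) and the passage 1 arrays (filled purple), with circles for pair 1 and squares for pair 2. Passage 3 ratios of Lyz1, Ctss and Lyz2 probe A_52_P238027 lie at 1.67 or above, while Cd68 lies on both sides of 0 at both passages.

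The passage comparison asks how the transcripts changed while the cultures were grown. All 15 probes were lower at passage 3 than at passage 1 in both cultures of both genotypes, without overlap, where 27.5% of all probes were so in F/- and 24.7% in F/+. The median change was -1.29 log2 in F/- cultures and -1.52 in F/+ cultures, against 0.011 and 0.020 over all probes. Probe by probe, the F/+ mean fell more than the F/- mean for 7 of the 15. The median over the 15 probes of the passage 3 minus passage 1 ratio was -0.017. In bulk RNA, fewer macrophages and less RNA of these genes per cell cannot be told apart. Past the limma threshold were 4 probes in F/-, of Cd68, Marco, C1qa and C1qb and 0 were higher (background 2.2% of all probes for lower calls, 2.88% for higher ones and 5.08% in either direction). In F/+ there were 7 probes of 6 genes, Lyz1, both Lyz2 probes, Ctss, Marco, C1qa and Cd68, and 0 were higher (background 2.42% for lower calls, 3.23% for higher ones and 5.65% in either direction). These intensities also entered the choice of the genes, so nothing is read from these counts. With the pair as a block, the estimated correlation between channels of a spot was -0.071, against 0.741 in the main fit. The block is a term shared by both mice of a pair and does not model the repeated sampling of each mouse. With it these counts were 11 in F/- and 12 in F/+. Without either passage 1 array they were 0 in both genotypes. They were 8 in F/- and 7 in F/+ without the passage 3 array of pair 1, and 2 and 6 without that of pair 2.

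The extent of the decline differed among the genes. Ctss changed by -2.60 and -2.37 log2 in F/- cultures (5.59-fold lower at the mean) and by -4.60 and -4.60 in F/+ cultures (24.2-fold lower). Lyz2 probe A_52_P238027 changed by -1.03 and -1.39 in F/- cultures (2.32-fold lower) and by -3.04 and -3.15 in F/+ cultures (8.54-fold lower). Lyz1 changed by -1.04 and -1.25 in F/- cultures (2.21-fold lower) and by -3.05 and -2.62 in F/+ cultures (7.13-fold lower). For these 3 genes both F/+ cultures changed more than both F/- cultures.

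The changes of the other genes differed less between the genotypes. Cd68 changed by -2.06 and -1.84 in F/- cultures (3.87-fold lower) and by -1.61 and -2.11 in F/+ cultures (3.63-fold lower), and the ranges crossed. C1qa changed by -2.39 and -2.15 in F/- cultures (4.82-fold lower) and by -2.30 and -2.86 in F/+ cultures (5.97-fold lower). Marco changed by -1.16 and -2.14 in F/- cultures (3.14-fold lower) and by -1.75 and -2.16 in F/+ cultures (3.87-fold lower). The brighter Adgre1 probe changed by -1.29 ± 0.28 in F/- cultures and by -1.59 ± 0.03 in F/+ cultures (SD, n = 2 cultures each). Both its F/+ changes (-1.57 and -1.61) lay below both F/- changes (-1.49 and -1.08). C1qb changed by -1.50 ± 0.07 in F/- cultures and -1.26 ± 0.27 in F/+ cultures (SD, n = 2 cultures each). Csf1r probe A_52_P602091 fell more in F/- cultures (-0.44 and -0.57) than in F/+ cultures (-0.17 and -0.31). At the mean, Fcer1g probe A_51_P405476 changed by -1.39 in F/- and -1.10 in F/+, and A_51_P405478 by -1.76 and -1.52. The difference between genotypes in the change with passage, which is the passage 3 minus passage 1 ratio, had adjusted p-values of 0.819 and above over all probes, and 0 of all probes passed at 0.05 (5.83% at an unadjusted p under 0.05).

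**Figure D3:**
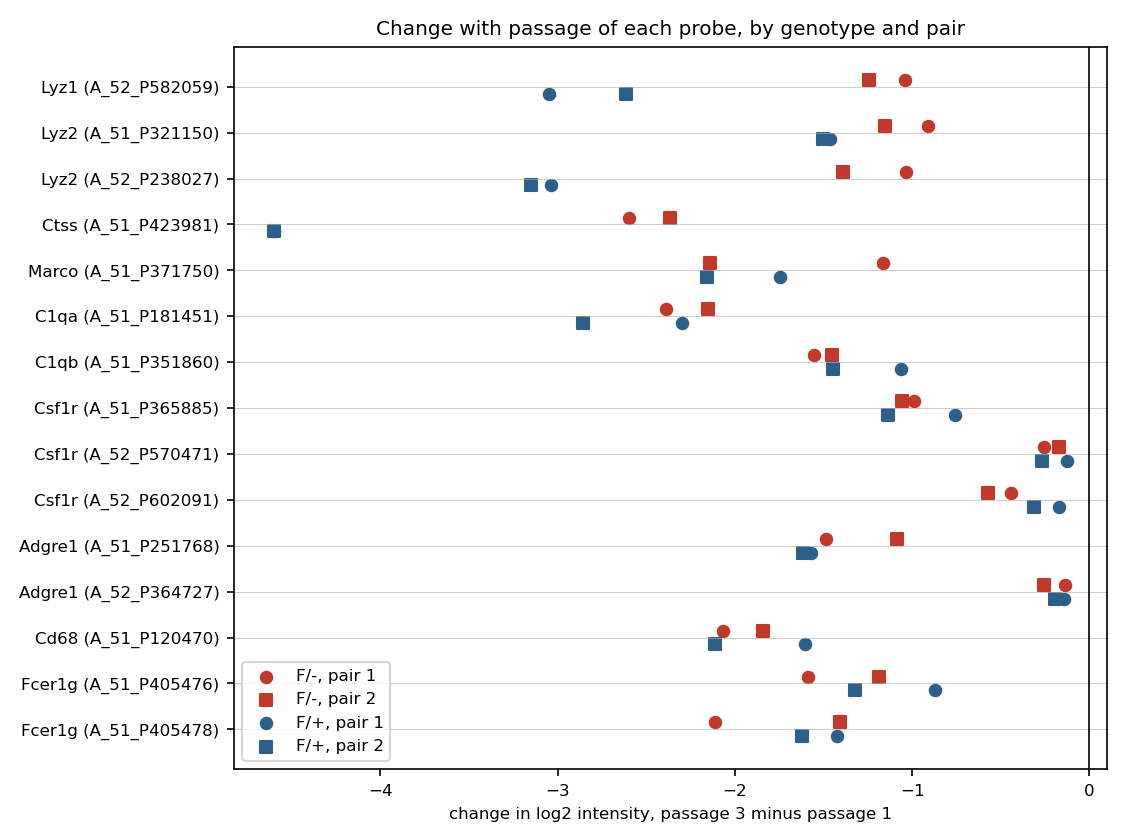
Change in log2 intensity from passage 1 to passage 3 (horizontal axis, passage 3 minus passage 1) for each probe (rows), with F/- in red above F/+ in blue and circles and squares for pair 1 and pair 2. All points lie below 0. F/+ points lie lower than F/- points for Lyz1, both Lyz2 probes, Ctss and Adgre1 probe A_51_P251768. F/- points lie lower for Csf1r probe A_52_P602091 and, narrowly, for C1qb. The genotypes mix for Cd68, C1qa and Marco.

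The levels of the 15 probes varied together over the 8 RNA samples. The mean of their centred levels was -0.12 and -0.52 in F/- cultures at passage 3, 1.20 and 0.78 in F/- cultures at passage 1, -1.17 and -1.19 in F/+ cultures at passage 3 and 0.42 and 0.60 in F/+ cultures at passage 1. Each probe's Pearson correlation with that mean, of which it is a part, ran from 0.74 for Csf1r probe A_52_P570471 to 0.997 for C1qa. Outside the 10 genes, the nearest of 7179 candidate probes by Pearson r over the 8 RNA samples were Tyrobp (0.998), which encodes the ITAM adaptor DAP12, the Fc receptor Fcgr3 (0.994), Pf4 (0.990), which encodes platelet factor 4, the perforin-like Mpeg1 (0.989) and the endocytic adaptor Dab2 (0.986). Samples that share an array or a culture are not independent, so these values are descriptions. Pf4 covered the widest range of the 5. It stood at 9.52 and 8.82 in F/- cultures at passage 3 and at 13.19 and 12.23 at passage 1, and at 6.65 and 6.79 in F/+ cultures at passage 3 and at 12.05 and 12.28 at passage 1.

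The 7 other lists held 69 genes of functions that macrophages carry out, all tested. They are not particular to macrophages: Csf1, for example, is also made by keratinocytes. Which cells the RNA of these genes came from was not tested. Over both passages 8 of the 69 were called higher in F/- and 0 lower, against 5.85% and 2.99% of all probes. The mean ratio was above 0 for 52 of the 69, against 16618 of 35574 probes. The called genes were the growth factor Csf1 (0.97), the chemokines Ccl6 (1.94), Ccl2 (0.86) and Pf4 (1.50), the scavenger receptor Msr1 (0.85), Tlr2 (0.48), the elastase Mmp12 (0.75) and the transcription factor Cebpa (0.67). The median ratio of the 69 was 0.21, against -0.011 over all probes, and 0.47 over the 15 probes. Without the passage 1 array of pair 1 the median of the 69 was 0.13, and without that of pair 2 it was 0.33. Median centring of each array gave 0.14 and both an offset of 0 (0.36) and the scanner's ratio (0.37) gave more. Of the 69, 0 were called without either passage 1 array, without the passage 3 array of pair 1, or with the arrays of a pair averaged, and 22 higher and 0 lower with the pair as a block. Median centring of each array called 13 higher and 7 lower.

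Among scavenger and pattern recognition receptors, 2 of 12 genes were called higher in F/- and the median ratio was 0.36. Msr1 was the highest, and Tlr4, the endotoxin receptor, was the lowest at -0.12. Fc receptors and ITAM signalling genes had a median of 0.42, with 0 of 10 called, from Lyn (0.076) to Tyrobp (0.98). Complement genes had a median of 0.061 with 0 of 7 called; C1qc, the remaining C1q chain, was the highest of them at 0.69. Lysosome and protease genes had a median of -0.018 with 1 of 13 called, from Ctsh (-0.40) to Gpnmb (0.77). The phagocyte oxidase list had a median of 0.30 with 0 of 6 called, and Ncf1 was its lowest at 0.0081. Myeloid transcription factors had a median of 0.056 with 1 of 8 called, from Maf (-0.31) to Cebpa (0.67). Growth factors, chemokines and their receptors had a median of 0.69 with 4 of 13 called, from Csf2ra (-0.33) to Ccl6 (1.94).

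With passage, 48 of the 69 genes were lower in F/- cultures and 48 in F/+ cultures, against 17311 and 16942 of 35475 probes. Their median changes were -0.35 and -0.25. At the threshold, 8 were called lower and 3 higher in F/-, against 2.2% and 2.88% of all probes. In F/+ cultures 9 were called lower and 5 higher, against 2.42% and 3.23%. With the pair as a block 22 were called lower and 6 higher in F/-, and 20 lower and 7 higher in F/+. Fewer were called in both genotypes without either passage 1 array, in fits that leave 1 array at that passage. Without the passage 1 array of pair 1 the median change was -0.24 in F/- and -0.36 in F/+. Without that of pair 2 it was -0.36 in F/- and -0.13 in F/+. C1qc fell in both genotypes, by a log2 change of -2.59 in F/- cultures and -3.37 in F/+ cultures. Pirb, an inhibitory receptor, changed by -3.13 in F/- and -3.49 in F/+. The lipid receptor Trem2 changed by -1.69 in F/- and -2.12 in F/+, and Pf4 by -3.54 in F/- and -5.44 in F/+. The mannose receptor Mrc1, Gpnmb, Ccl9 and Sirpa fell in both genotypes as well, and Tyrobp passed the test in F/+ cultures. Its change was -2.01 in F/- cultures (limma adjusted p = 0.055) and -2.48 in F/+ cultures. The 3 genes called higher at passage 3 in both genotypes, Csf1, Csf2 and Cx3cl1, encode cytokines that keratinocytes are known to make as well. Csf1, the ligand of the Csf1r product, stood at 15.12 and 14.49 in F/- cultures at passage 3 and at 12.12 and 12.36 at passage 1, and at 13.67 and 14.10 in F/+ cultures at passage 3 and at 11.13 and 11.31 at passage 1. It thus rose by 2.57 in F/- and by 2.66 in F/+ while the Csf1r probes were lower. Csf2 rose by 3.34 and 4.02 and the chemokine Cx3cl1 by 4.31 and 4.26, again F/- before F/+. Tlr2 changed by 0.56 in F/- cultures and rose by 1.02 in F/+ cultures, and Lyn changed by 0.65 in F/- cultures and rose by 0.96 in F/+ cultures; the difference between genotypes passed the test for neither.

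Markers of other cells were read beside these genes. General haematopoietic genes had a median ratio of 0.34, with 1 of 12 called higher (Cd84), against 5.85% of all probes. With the arrays of a pair averaged, 0 were called. Their mean level in F/- cultures was 7.06 to 7.14 at passage 3 and 7.66 to 8.09 at passage 1. In F/+ cultures it was 6.76 to 6.86 at passage 3 and 7.49 to 7.62 at passage 1. The pan-leukocyte gene Ptprc stood at 6.67 and 6.55 in F/- cultures and at 6.33 and 6.33 in F/+ cultures at passage 3. Langerhans and dendritic cell markers had a median of -0.024 with 0 of 8 called, and Cd207, which encodes langerin, was the lowest of that list at -0.22. T cell, mast cell, B cell and neutrophil markers had medians of -0.04, 0.0091, -0.038 and -0.20 with 0 of 8, 0 of 7, 0 of 4 and 0 of 5 called.

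Fibroblast markers had a median ratio of 0.86 at passage 3 and 0.071 at passage 1, with 0 of 8 called over both passages. The median over both passages was 0.40, against 0.21 without the passage 3 array of pair 1, 0.65 without that of pair 2 and 0.24 without the passage 1 array of pair 1; 3 of 8 were called higher without the passage 3 array of pair 2 and 3 with the pair as a block. Their mean level was 8.66 to 8.92 in F/- cultures at passage 3, 8.00 to 8.08 in F/- cultures at passage 1, 7.80 to 8.31 in F/+ cultures at passage 3 and 7.72 to 8.17 in F/+ cultures at passage 1. Col1a1, a fibrillar collagen chain, had ratios of 2.32 and 0.64 at passage 3 and 0.81 and 0.46 at passage 1. Of the 10 keratinocyte markers, 5 were called lower in F/- over both passages, against 2.99% of all probes, and 0 higher, against 5.85%. Those called lower were Krt5 (-0.60), Krt14 (-0.66), Krt15 (-0.45), Col17a1 (-0.58) and Perp (-0.55). Sfn was the highest at 0.47. Of these markers 0 were called without either passage 1 array, without the passage 3 array of pair 1 or with the arrays of a pair averaged, and 1 was called with the scanner's ratio. The part of fibroblast and keratinocyte content in the genotype ratios of the macrophage genes was not tested.

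Melanocyte markers also declined with passage, with median changes of -1.26 in F/- cultures and -1.33 in F/+ cultures. Called lower were 4 of 6 in F/-, against 2.2% of all probes, and 3 of 6 in F/+, against 2.42%. These calls were lost without either passage 1 array, in fits that leave 1 array at that passage. Without the passage 1 array of pair 1 these markers changed by -1.22 in F/- and -1.49 in F/+ at the median. Without that of pair 2 they changed by -1.39 in F/- and -1.16 in F/+. Their median genotype ratio was -0.026, with 0 of 6 called, so these markers shared the passage change of the macrophage genes with a median ratio near 0. Median centring of each array gave -0.21, with 3 of 6 called lower in F/-. The endothelial marker Kdr fell in both genotypes, with changes of -2.49 in F/- and -2.86 in F/+, and had a ratio of -0.16, while the other 5 endothelial markers were not called. Erythroid markers had a median change of -1.54 in F/- cultures and -1.24 in F/+ cultures with 0 of 4 called.

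**Figure D4:**
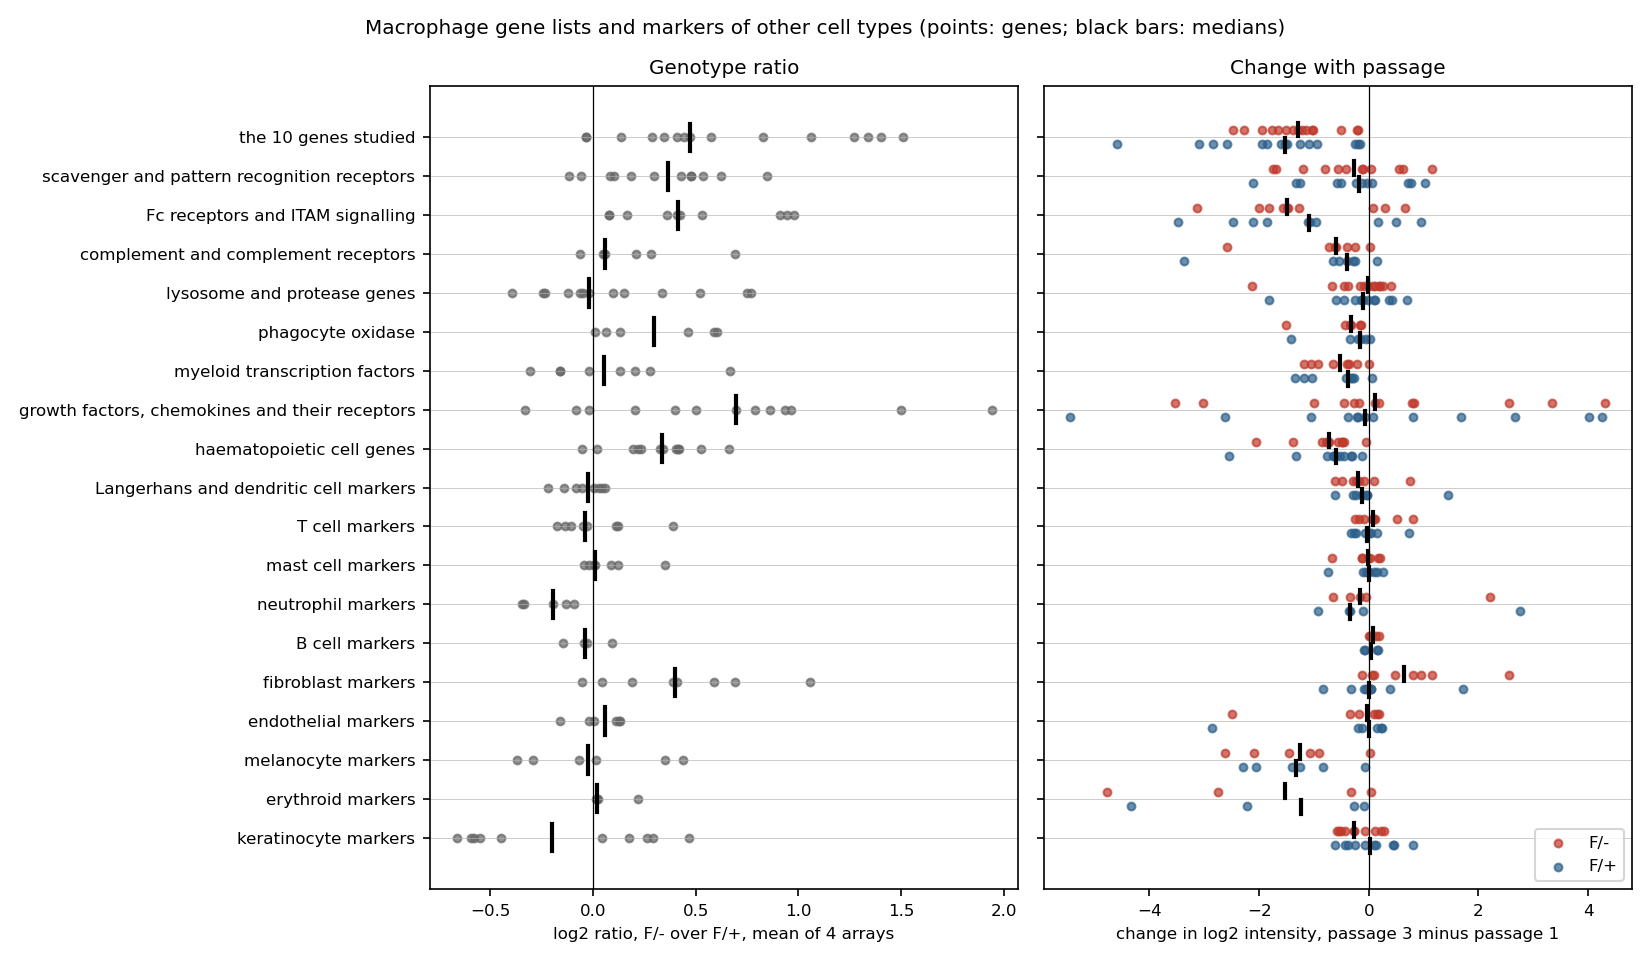
Left, log2 ratio of F/- over F/+ as the mean of 4 arrays; right, change in log2 intensity from passage 1 to passage 3 with F/- in red above F/+ in blue. Points are genes (probes for the 10 genes in the top row), rows are gene lists and black bars are medians; the 10 genes have a median ratio of 0.47 and median changes of -1.29 in F/- and -1.52 in F/+, and melanocyte markers have like median changes with a median ratio of -0.026.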

How the data were processed

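The authors deposited 1 scanner file per array; the submitters' processing notes name Agilent Feature Extraction 9.1.3.1. These files, per the file headers, hold raw intensity (mean signal and median local background) in 2 channels and the log10 ratio of processed signals, Cy5 over Cy3. The authors' deposited value table holds the same log10 ratio with the sign turned (largest gap 4.96e-06), with column medians of -0.00223 and 0 at passage 1 and 0 and -0.000733 at passage 3, so scale, centring and direction are known; it served as an alternative. No genome build applies to the intensities.

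Background was corrected by normexp with an offset of 50, then each array was normalized by loess, giving control and outlier spots weight 0 (limma 3.58.1 under R 4.3.3). Spots of a probe were averaged. A probe was kept where 2 or more arrays read it well above background in a channel and no more than 1 array lacked it. Ratios were fitted on 4 arrays with passage as the group. Levels and passage changes came from a separate-channel fit after loess and Aquantile, with a correlation of 0.741 between channels of a spot and 35475 probes. Tests were two-sided and limma's p-values were adjusted by Benjamini-Hochberg over all probes, with a threshold of 0.05. Fits tested on simulated data recovered 96.5% of 200 probes changed by 2 log2 units at passage 1, 98% over both passages and 81% for passage in F/-. False calls numbered 15, 16 and 6. The simulated noise held no dye effect and no difference between pairs, so these shares do not give the power on the real arrays. Probes were named from the accession (21702), the symbol (5446), an older symbol (2592) or as in the file (5834), with a RefSeq table of GRCm38.p6.

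By the design text, RNA of the same mice was taken at passage 1 and passage 3, and pair numbers match their arrays; the 2 arrays of a pair deviated from the passage means with a correlation of -0.000464 over probes. Arrays of 1 pair are not independent mice. Slide and scan were shared by all arrays. The members and gene lists were chosen with earlier results of these data known. All probes of the 10 genes were named, from each other list the genes with the highest and lowest mean ratio (a gene with several probes by its brightest), and the 5 genes most alike; further list genes were named because they passed a test, or as defining markers, after their values were seen. Some genes that fall under the rule are not reported here. Alternatives were other background settings, median centring, the scanner's and authors' ratios, quantile normalization of channels, no filter, the pair as a block, leaving out each array and, chosen after seeing the data, averaging the arrays of a pair.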

Additional observations from a re-analysis of the deposited data

Results flagged for a closer look

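Lyn, a Src-family kinase of the Fc receptor and ITAM list, had a genotype ratio whose sign differed between passages. Its log2 ratios of F/- over F/+ were -0.14 and -0.02 on the passage 3 arrays and 0.18 and 0.28 on the passage 1 arrays, a passage 3 minus passage 1 difference of -0.31. The arrays of each passage shared a sign and the sign differed between passages, which is not itself a test. By limma's test of the difference the adjusted p was 0.848, so the difference did not pass the threshold.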

How the results depend on the processing

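Over all probes, 3144 were called in the genotype ratio over both passages (2080 higher and 1064 lower in F/-). The scanner software's log ratio gave 1934, median centring of each array gave 917 higher and 3050 lower, leaving out each array in turn gave 0 to 3966, and averaging the arrays of each pair, chosen after seeing the data, gave 0 with a smallest adjusted p of 0.0509. At passage 1 the count was 0, and 69 (49 higher, 20 lower) with a normexp offset of 0. The passage change called 1802 probes in F/- and 2005 in F/+; with the pair as a replicate block these were 3939 and 4122, and leaving out each array in turn gave 97 to 3118 in F/- and 178 to 4595 in F/+, in fits that took the correlation between channels from all arrays and let the lone sample vary like the other groups. The block fit estimated that correlation at -0.071, against 0.741 in the main fit. Why the counts moved was not tested. The block changed no call of the 15 probes at passage 1.

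Among the 15 probes, passage 1 ratios changed sign with median centring for Lyz2 probe A_52_P238027 (-0.093), Ctss (-0.014) and Cd68 (-0.12). Without the passage 1 array of pair 1 they did so for Ctss (-0.40, against 0.95 without that of pair 2), Cd68 (-0.18, against 0.21) and both Fcer1g probes (-0.11, against 0.97, and -0.0082, against 1.19). Without the passage 1 array of pair 2, Csf1r probe A_52_P570471 turned to 0.053, against -0.10 without that of pair 1. Of the other passage 1 values under an alternative, 154 kept their sign and their side of the threshold, and Marco alone passed it, with an offset of 0. All 15 passage changes stayed below 0 in both genotypes under every alternative run. Of the passage 3 values under an alternative, 25 moved by more than the spread between arrays and 140 did not. Passage 3 ratios ran from 0.38 to 1.37 for Lyz2 probe A_51_P321150, from 0.75 to 1.77 for Adgre1 probe A_51_P251768, from 1.03 to 1.91 for C1qa and from 0.20 to 1.36 for Fcer1g probe A_51_P405478. Those of Lyz1 stayed between 1.67 and 2.82, of Lyz2 probe A_52_P238027 between 1.87 and 2.56, of Ctss between 1.84 and 2.96 and of Marco between 1.49 and 1.83. Low signal over background limits Adgre1 probe A_52_P364727.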
